A study of Coprinopsis cinerea AmutBmut pab1-1 with 7 samples.

Results

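The genes 394254 and 501856 of the mushroom *Coprinopsis cinerea* encode carbohydrate-active enzymes of families GH152 and GH92, and the study placed both among its fungal cell wall genes. They are 2 of the 14242 gene models with a deposited value. Both were chosen by their measured difference between mutant and wild-type mycelium in these same libraries, so their values against the wild type are a description and carry no test. Transcripts were measured by Quant-Seq, which reads polyadenylated RNA at its 3′ end, in 3 wild-type libraries and in 2 libraries for each of the labels Δ*cre1*-43 and Δ*cre1*-91. The wild type was the AmutBmut *pab1-1* strain, which cannot make para-aminobenzoic acid. In the mutant strains *cre1* had been targeted by Cas9 ribonucleoproteins and replaced by the *pab1* marker, so the mutants also differ from the wild type in *pab1*, and the 2 changes cannot be told apart here. Each mutant strain goes back to a single transformant. All cultures were vegetative mycelium from YMG plates with 0.2% glucose, kept dark at 28°C for 84 h, and no source used here says whether libraries of a strain came from separate cultures, so P values measure only the spread between these libraries.

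The fungal cell wall is a layered network of chitin, β-glucans and mannoproteins that the hypha has to cut and rebuild as it grows, branches or autolyses. GH152 enzymes are thaumatin-like proteins, and some members of the family cut β-glucan; in the shiitake mushroom *Lentinula edodes* such an enzyme is linked to the breakdown of wall glucan after harvest. GH92 enzymes are α-mannosidases that release mannose from the ends of mannan chains or of the glycans on mannoproteins. Cre1 is the zinc finger repressor of carbon catabolite repression, which in ascomycete fungi keeps genes for the use of other carbon sources low while glucose is present.

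The mutant libraries were all shallower than the wild-type libraries, with 6232853 to 8514379 assigned counts against 10196878 to 10784958, and depth and genotype cannot be told apart. Reads assigned to *cre1* itself (protein ID 466792) were not fewer in the mutants beyond the spread. Its scaled level was 9.30 ± 1.80 CPM (counts per 1000000 of the scaled library size; SD, n = 3) in the wild type. It was 8.44 ± 0.39 CPM in the Δ*cre1*-43 libraries and 7.38 ± 1.58 CPM in the Δ*cre1*-91 libraries (SD, n = 2 each). Reads were counted with a 400-bp 3′ overhang, and the study built its downstream homology arm from sequence past the 3′ end of *cre1*. Such sequence could remain in the mutants, and the position of the *cre1* reads was not examined. The study found the *pab1* marker at the *cre1* locus by PCR and sequencing. It states its confidence that both strains are deletion mutants and cites its Quant-Seq results for this. It also notes that an internal piece of *cre1* could still be amplified from both mutants after many PCR cycles. For this reason the mutant groups carry only their labels here.

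The GH152 gene 394254 was barely detected in the wild type and clearly expressed in every mutant library. In the Amut1Bmut1 *pab1-1* assembly (v1.0) the gene occupies scaffold 38 from 14743 to 16493, forward strand, and has 12 coding exons and a coding length of 759 nucleotides. Its model includes the 400-bp 3′ overhang used in counting and is overlapped by no other model. The wild-type libraries held 4, 2 and 5 reads of the gene, the libraries labelled Δ*cre1*-43 held 307.5 and 680.83, and those labelled Δ*cre1*-91 held 754 and 738.2. No mutant library came near the wild-type range, and the lowest value among the mutants was that of Δ*cre1*-43 replicate 1, which was also the shallowest library.

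Scaled for library size, the GH152 gene stood at 0.370, 0.195 and 0.464 CPM in the wild type, with a mean of 0.343 ± 0.137 CPM (SD, n = 3). It stood at 46.3 and 80.5 CPM in the libraries labelled Δ*cre1*-43, a mean of 63.4 ± 24.2 CPM (SD, n = 2), and at 95.6 and 94.4 CPM in those labelled Δ*cre1*-91, a mean of 95.0 ± 0.853 CPM (SD, n = 2). The libraries of Δ*cre1*-91 were nearly equal, whereas those of Δ*cre1*-43 differed by 1.74 times. That gap exceeded counting error, since the 95% exact binomial interval before scaling ran from 44.1 to 55.3 CPM in replicate 1 and from 74.6 to 86.8 CPM in replicate 2. Such intervals cover counting error only. In the wild type the widest of these intervals reached up to 1.08 CPM.

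The ratio of mean CPM to the wild type was 185 for Δ*cre1*-43 and 277 for Δ*cre1*-91. Because the wild-type value rests on 11 reads in all, these ratios are loosely fixed. Pooled reads gave a ratio of 190 with a 95% counting interval from 105 to 381 for Δ*cre1*-43, and a ratio of 275 with an interval from 153 to 553 for Δ*cre1*-91. On the log2 scale the fitted change from edgeR was 7.47 (standard error 0.32) and 8.05 (standard error 0.32). Of the 9923 genes with a mean of at least 1 CPM over the 7 libraries, 3 had a larger fitted change than the GH152 gene in Δ*cre1*-43 and 0 in Δ*cre1*-91.

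**Figure D1:**
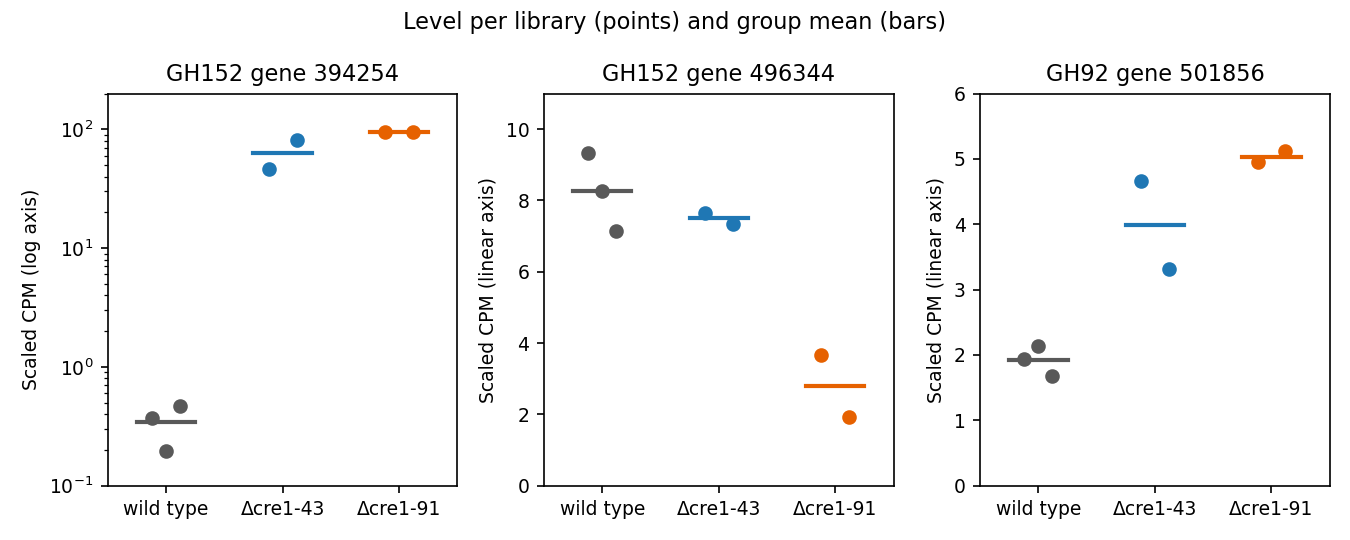
Scaled CPM of the GH152 gene 394254 (left, log axis), the neighbouring GH152 gene 496344 (middle, linear axis) and the GH92 gene 501856 (right, linear axis). Points are libraries and bars are group means; the GH152 gene 394254 rises from under 0.5 to at least 46.3 CPM, gene 496344 is lowest in the Δ*cre1*-91 libraries, and the GH92 gene stays below 6 CPM in every library.

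The GH92 gene 501856 was expressed at a low level in the wild type and about doubled in the mutants. It lies on scaffold 248, from 18661 to 22647, forward strand, with 21 coding exons, a coding length of 2499 nucleotides and the same 400-bp overhang, and no other gene model overlaps it. The wild-type libraries held 21, 22 and 18 reads, the libraries labelled Δ*cre1*-43 held 31.2 and 28.45, and those labelled Δ*cre1*-91 held 39 and 40. All 4 mutant libraries held more reads than any wild-type library although they were shallower.

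Scaled levels of the GH92 gene were 1.94, 2.14 and 1.67 CPM in the wild type, a mean of 1.92 ± 0.24 CPM (SD, n = 3). They were 4.66 and 3.31 CPM under the label Δ*cre1*-43, a mean of 3.98 ± 0.95 CPM (SD, n = 2), and 4.95 and 5.12 CPM under the label Δ*cre1*-91, a mean of 5.03 ± 0.12 CPM (SD, n = 2). The groups did not overlap, but single libraries were not all separated by counting error. Before scaling, the 95% exact binomial interval of wild-type replicate 2 ran up to 3.27 CPM and that of Δ*cre1*-43 replicate 2 started at 2.20 CPM.

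The ratio of mean CPM to the wild type was 2.08 for Δ*cre1*-43 and 2.62 for Δ*cre1*-91, and pooled reads gave 95% counting intervals from 1.40 to 2.97 and from 1.86 to 3.73. The fitted log2 fold changes of the GH92 gene were 1.04 (standard error 0.38) and 1.39 (standard error 0.37). Among the 9923 genes with a mean of at least 1 CPM, 791 (7.97%) had a larger fitted change in Δ*cre1*-43 and 466 (4.70%) in Δ*cre1*-91, so a shift of this size was shared by many genes.

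Calls used the limits of the study, an adjusted P no higher than 0.05 over all 14242 genes together with a log2 fold change of 1 or more in either direction. The GH152 gene met both limits in both strains. The GH92 gene met them in Δ*cre1*-91 but not in Δ*cre1*-43. Over all genes, 4.82% were called higher in Δ*cre1*-43 and 4.97% in Δ*cre1*-91. All 4 mutant libraries lay above all 3 wild-type libraries for both genes and for 13% of all genes. These counts restate the choice of the genes. For the GH92 gene the call in Δ*cre1*-91 needed both libraries of that strain. It was lost without Δ*cre1*-91 replicate 1 (log2 fold change 1.38) and without Δ*cre1*-91 replicate 2 (1.37), although the change itself hardly moved from 1.39. In Δ*cre1*-43 the change was below the limit of 1 without Δ*cre1*-43 replicate 1 (0.79) and without wild-type replicate 3 (0.95).

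**Figure D2:**
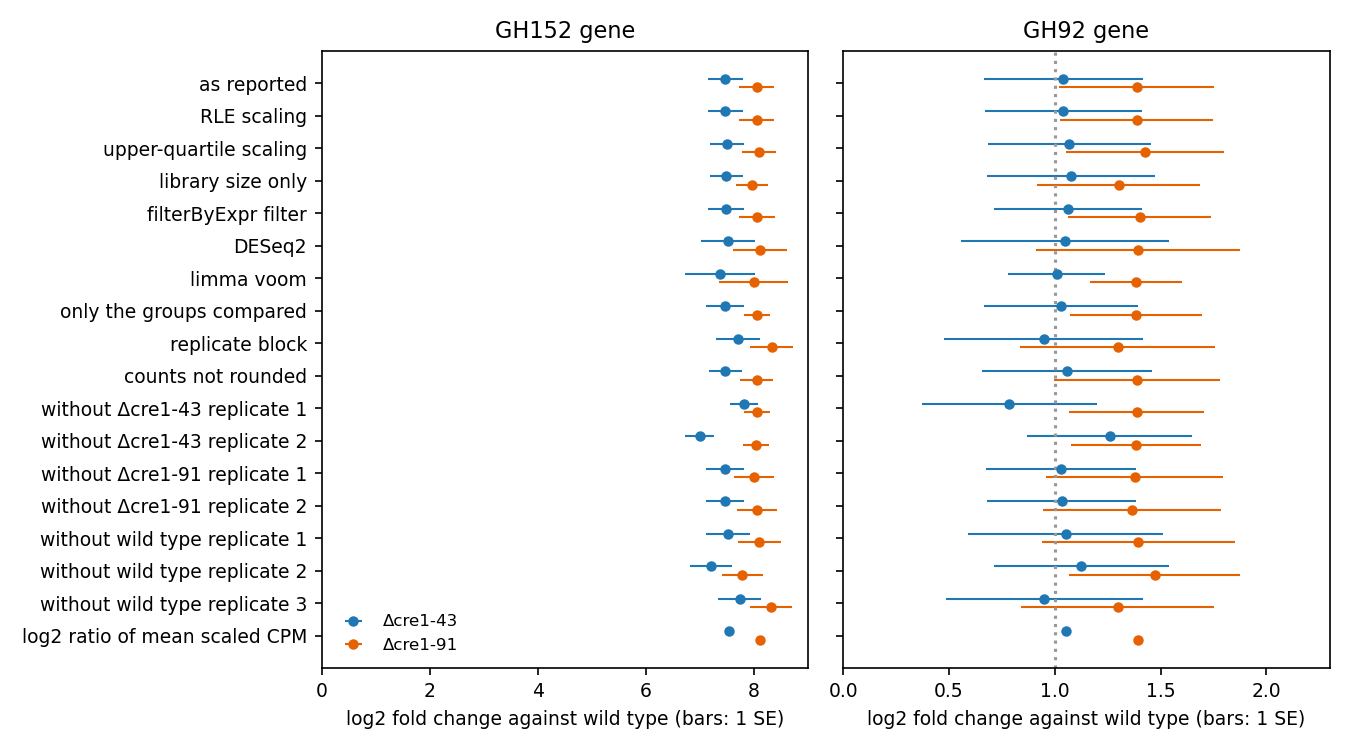
Fitted log2 fold change against the wild type (x axis, bars of 1 standard error) of the GH152 gene (left) and the GH92 gene (right) as reported and under each alternative (rows). The GH152 values lie between 6.99 and 8.33, far from 0 in every row; the GH92 values lie between 0.79 and 1.47, on both sides of the limit of 1 (dotted) for Δ*cre1*-43.

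The direct contrast of the mutant strains was not used to choose the genes and was tested. The GH152 gene was lower in Δ*cre1*-43 than in Δ*cre1*-91 by a log2 difference of -0.58 (standard error 0.22), a ratio of 0.669 with an unadjusted 95% interval from 0.483 to 0.927. The difference did not pass the test over all genes (edgeR quasi-likelihood test, Benjamini-Hochberg adjusted P = 0.319). It was -0.24 without Δ*cre1*-43 replicate 1 and -1.05 without Δ*cre1*-43 replicate 2, and its adjusted P from edgeR, DESeq2 or limma ranged from 0.192 to 0.714 over the alternatives. The GH92 gene gave a log2 difference of -0.35 (standard error 0.39) between the same strains, a ratio of 0.787 with a 95% interval from 0.443 to 1.40, and did not pass (edgeR, adjusted P = 0.865, from 0.548 to 1 over the alternatives). Without Δ*cre1*-43 replicate 1 this difference was -0.60, and without Δ*cre1*-43 replicate 2 it was -0.12. Over all genes 0.246% were called between the strains. The call of the GH92 gene in one strain and not in the other is thus no measured difference between the strains.

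The next gene model downstream of the GH152 gene, 496344, is the other GH152 gene of the study's list. It starts 1860 bp after the end of 394254, from position 18354 to 20207 on the same strand, with 13 coding exons and a coding length of 774 nucleotides against 759. Its libraries held 101, 85 and 77 reads in the wild type, 51 and 62 in Δ*cre1*-43, and 29 and 15 in Δ*cre1*-91. Scaled, it stood at 9.33, 8.28 and 7.15 CPM in the wild type, at 7.66 and 7.33 CPM in Δ*cre1*-43 and at 3.68 and 1.92 CPM in Δ*cre1*-91. So this second gene, unlike its neighbour, was expressed in the wild type, overlapped with it in Δ*cre1*-43 and lay below it in Δ*cre1*-91.

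The fitted log2 fold change of 496344 was -0.14 (standard error 0.30) in Δ*cre1*-43 and -1.55 (standard error 0.33) in Δ*cre1*-91, where it was called lower. The call was lost without Δ*cre1*-91 replicate 2 (-1.16). The study drew its list from these libraries, so this direction is not independent evidence. Between the mutant strains the log2 difference of 496344 was 1.42 (standard error 0.36) and did not pass (edgeR, adjusted P = 0.0971, from 0.0371 to 0.37 over the alternatives, the lowest with library size as the only scaling). The last 400-bp stretch of this gene overlaps the model 446036 on the same strand, so reads there could belong to either. Some counts of 394254 were not whole numbers, in 3 of the 4 mutant libraries, although no other model overlaps it. The GH92 gene, also without overlap, had such counts in both Δ*cre1*-43 libraries (31.2 and 28.45). Fractions can arise where reads are shared out between places in the genome, and their origin is not stated. All counts of 496344 were whole.

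The other neighbours of the GH152 gene were not called in either strain. With 4.82% and 4.97% of all genes called higher and 2.16% and 3.35% lower, no call among so few models is near the background. Upstream, 446030 stood at 27.4 to 30.9 CPM in the wild type and 16.7 to 25.3 CPM in the mutants, with log2 fold changes of -0.37 and -0.65. In Δ*cre1*-91 it missed the call only on the fold limit (edgeR, adjusted P = 0.0304), while in Δ*cre1*-43 the adjusted P was 0.247 (edgeR). The model 496341, farther upstream, held 2 to 3.33 reads in the wild type and 2.84 to 15.1 in the mutants and was not called (log2 fold changes 2.27 and 1.56). Downstream, 446036 had log2 fold changes of -0.01 and 0.18 and 394264 of 0.36 and 0.17, and neither was called.

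Around the GH92 gene, 0 of the 3 nearest models on each side were called in either strain by edgeR, DESeq2 or limma voom, and 1 had an unadjusted edgeR P under 0.05 (130255, in Δ*cre1*-91). The models 466695 and 517944 had 0 reads in all 7 libraries, and 407115 and 407121 had at most 2 in any library. The expressed neighbours were 482447, at 10.5 to 27.9 CPM with log2 fold changes of -0.25 and -0.07, and 130255, described as a short-chain dehydrogenase, at 12.1 to 21.0 CPM with changes of -0.38 and -0.50. With 4.82% and 4.97% of all genes called higher and 2.16% and 3.35% called lower, a count of 0 among 6 models is near the background.

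**Figure D3:**
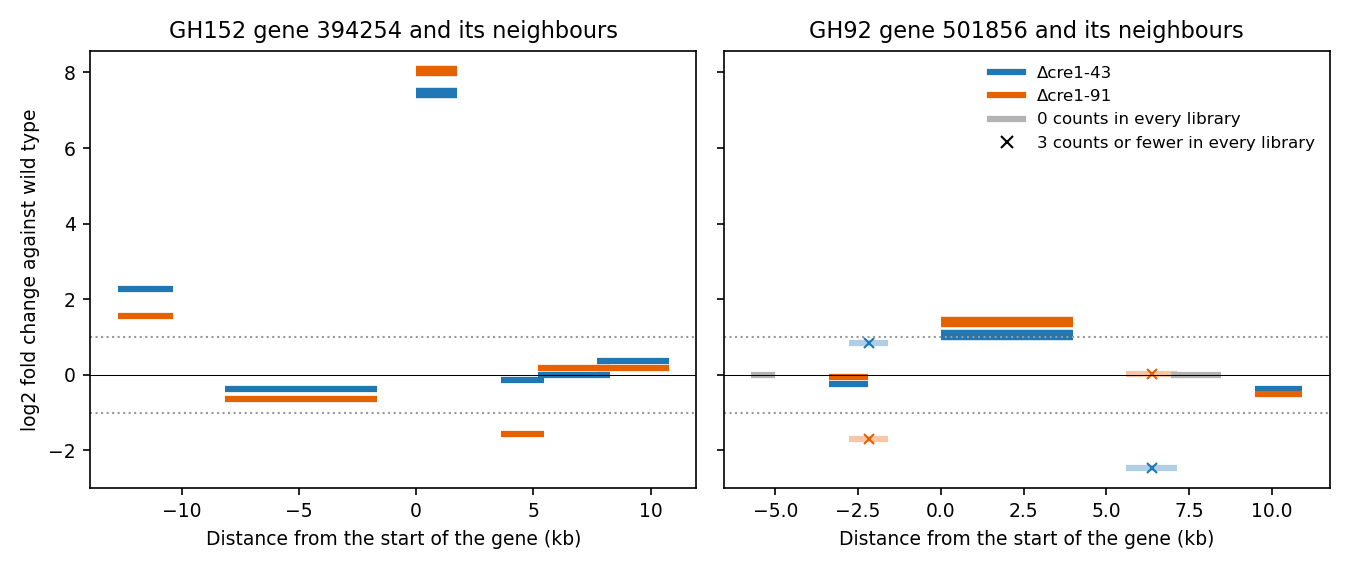
Log2 fold change against the wild type (y axis) of the GH152 gene 394254 (left) and the GH92 gene 501856 (right, both thick bars at 0 kb) and the nearest gene models, drawn at their distance from the start of the gene (x axis, kb). Dotted lines mark 1 and -1. Gene 394254 stands alone near 8 while the adjacent GH152 gene lies at -0.14 and -1.55; around 501856 most models have few or no reads.

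The genes whose pattern was most like that of the GH152 gene were sought over the 7 libraries, by the root mean square (RMS) difference of log2(CPM + 0.5) after removing each gene's mean, among genes with a mean of at least 1 CPM. The 5 nearest were 473021 (AA9 with a CBM1 module, RMS difference 0.57), 546855 (GH6, 0.61), 437020 (GH6, 0.76), 179843 (AA9, 0.84) and 371412 (GH6, 0.86). All 5 stand in the study's list of plant cell wall enzymes, from which these families are taken. That list too holds only genes the study found changed in these libraries, so a place in it restates the choice by pattern. AA9 enzymes are lytic polysaccharide monooxygenases that cleave cellulose by oxidation, GH6 enzymes are mostly cellobiohydrolases, and CBM1 is a cellulose-binding module. None of the 5 is in the fungal cell wall list. Gene 473021 stood at 0.65, 0.78 and 1.11 CPM in the wild type, 85.0 and 101 CPM in Δ*cre1*-43 and 73.3 and 59.6 CPM in Δ*cre1*-91. Its pattern, near 0 in the wild type and high in every mutant library, is the one it was picked for.

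The order of the mutant strains was the other way round. All 5 genes had a higher fitted level in Δ*cre1*-43 than in Δ*cre1*-91, by log2 differences of 0.42 (179843) to 0.95 (371412), where the GH152 gene had -0.58. None of these differences passed the edgeR test (adjusted P from 0.0612 to 0.683), and the contrast between the genes was not tested.

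For the GH92 gene the nearest patterns were those of 421651 (RMS difference 0.06), 367178 (0.11), 355089 (0.11), 376626 (0.11) and 479199 (0.11). Only 355089 carries a description in the rows of the study's InterPro table that were read, as a TAF1B/Rrn7 initiation factor of RNA polymerase I. Gene 421651, the closest, stood at 61.8, 66.6 and 52.7 CPM in the wild type, 125 and 88.8 CPM in Δ*cre1*-43 and 147 and 137 CPM in Δ*cre1*-91. Its order of libraries within the wild type and within Δ*cre1*-43 was that of the GH92 gene. As it was picked as the closest of 9922 genes, this match follows from the choice. The fitted changes of the 5 genes ran from 0.80 to 0.92 in Δ*cre1*-43 and from 1.18 to 1.31 in Δ*cre1*-91, beside 1.04 and 1.39 for the GH92 gene.

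**Figure D4:**
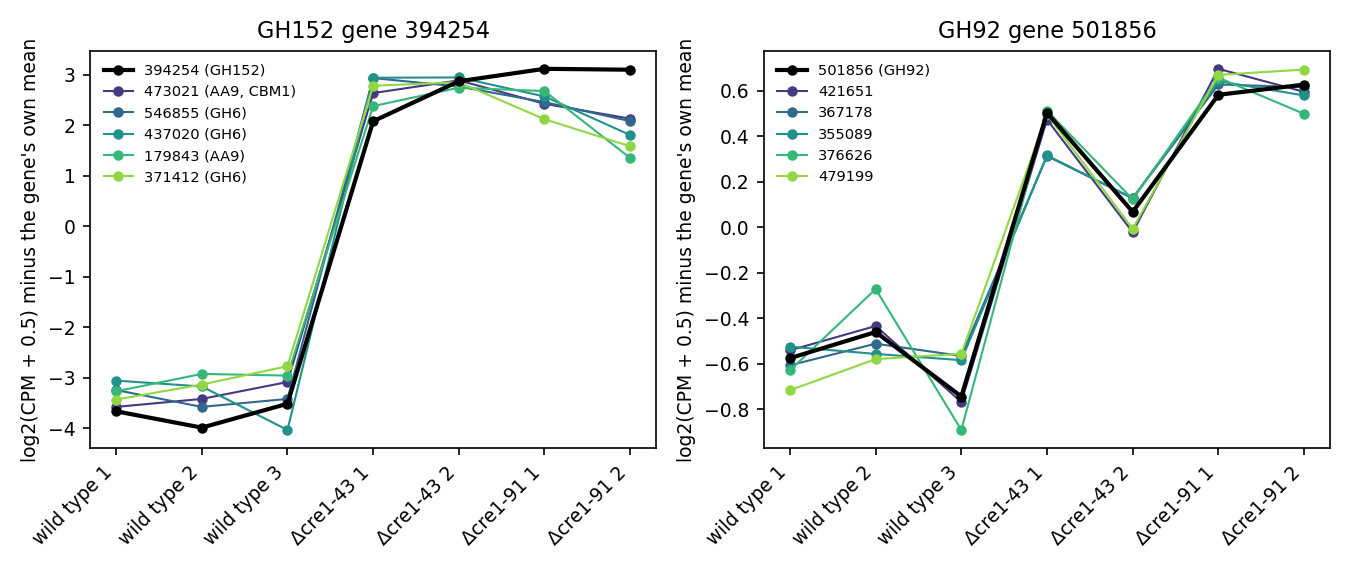
Log2(CPM + 0.5) minus each gene's own mean over the 7 libraries (y axis) by library (x axis) for the GH152 gene (left, black), the GH92 gene (right, black) and the 5 genes with the most similar pattern to each (coloured). The black GH152 line climbs from Δ*cre1*-43 to Δ*cre1*-91 while its 5 companions lie lower in Δ*cre1*-91; the y axes differ, as the GH92 shift is far smaller.

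The study's fungal cell wall list holds 19 genes, of which 17 are other than the GH152 and GH92 genes described here, and it was drawn from these libraries. Of the 19, 9 were called higher and 6 lower in each strain, and 8 were called higher and 3 lower in both. The share of all genes called higher was 4.82% in Δ*cre1*-43 and 4.97% in Δ*cre1*-91, and the share called lower was 2.16% and 3.35%. The share of all genes called in both strains was not computed. These counts restate the choice of the list. The median log2 fold change of the 19 was 1.04 in Δ*cre1*-43 and 0.49 in Δ*cre1*-91 beside 0 over all genes. Without the GH152 and GH92 genes it was -0.14 and -0.61. Gene models of other genes overlap 12 of the 19, and the strand setting of the counting is not given in the sources used here, so some of their reads could be a neighbour's.

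Within that list, the chitin-cutting enzymes were among the genes called higher. The chitin breakdown genes taken by InterPro description, and not by their change, are an unlike set. They include genes with a NodB homology domain, described as deacetylases, and leave out the GH18 genes of the study's list. Of those 8, 1 was called higher in each strain, beside 4.82% and 4.97% of all genes. This was the GH20 gene 227722, which is also in the study's list. The median log2 fold change of the 8 was -0.13 in each strain. Gene 470416 (GH18, the main chitinase family) stood at 2.31, 4.97 and 3.25 CPM in the wild type, 36.6 and 28.4 CPM in Δ*cre1*-43 and 48.5 and 32.6 CPM in Δ*cre1*-91, with log2 fold changes of 3.21 and 3.53. Gene 227722 (GH20, the family of N-acetylhexosaminidases) rose by 1.11 and 1.12. The second GH18 gene, 91051, was called higher in Δ*cre1*-43 (1.78) but not in Δ*cre1*-91 (0.49). That call was lost without either Δ*cre1*-43 library (1.76 and 1.78).

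The glucan enzymes of family GH5_9, in which exo-β-glucanases are found, went the other way from the GH152 gene. Gene 414471 fell in both strains (-1.41 and -1.87), from 33.2 to 34.4 CPM in the wild type to 8.88 to 15.4 CPM in the mutants. Gene 500464 was called lower in Δ*cre1*-91 (-1.23), and its value in Δ*cre1*-43 was -0.77, called only without Δ*cre1*-43 replicate 1 (-1.11). Gene 422563, with the LysM module CBM50 that binds chitin, gave the lowest values of the list (-2.65 and -2.89), from 246 to 317 CPM in the wild type to 37.5 to 45.3 CPM in the mutants. The 8 genes of AA3_2, flavin-dependent sugar and alcohol oxidoreductases, split into 3 called higher in each strain and 4 called lower in Δ*cre1*-43 or 2 in Δ*cre1*-91. Of those 4, 382020 lost its call in 14 of 16 alternatives, among them leaving out any single library (-3.54 to -1.64), and 499623 lost it without either Δ*cre1*-43 library (-2.63 and -2.31) or without wild-type replicate 1 (-2.25) or 2 (-2.47). The alcohol oxidase family gene 492531 (AA3_3) was at 3.53 and 2.70, and the copper radical oxidase gene 456054 (AA5_1) at 1.20 and 1.21, a call that was lost in Δ*cre1*-91 without its replicate 1 (0.83).

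**Figure D5:**
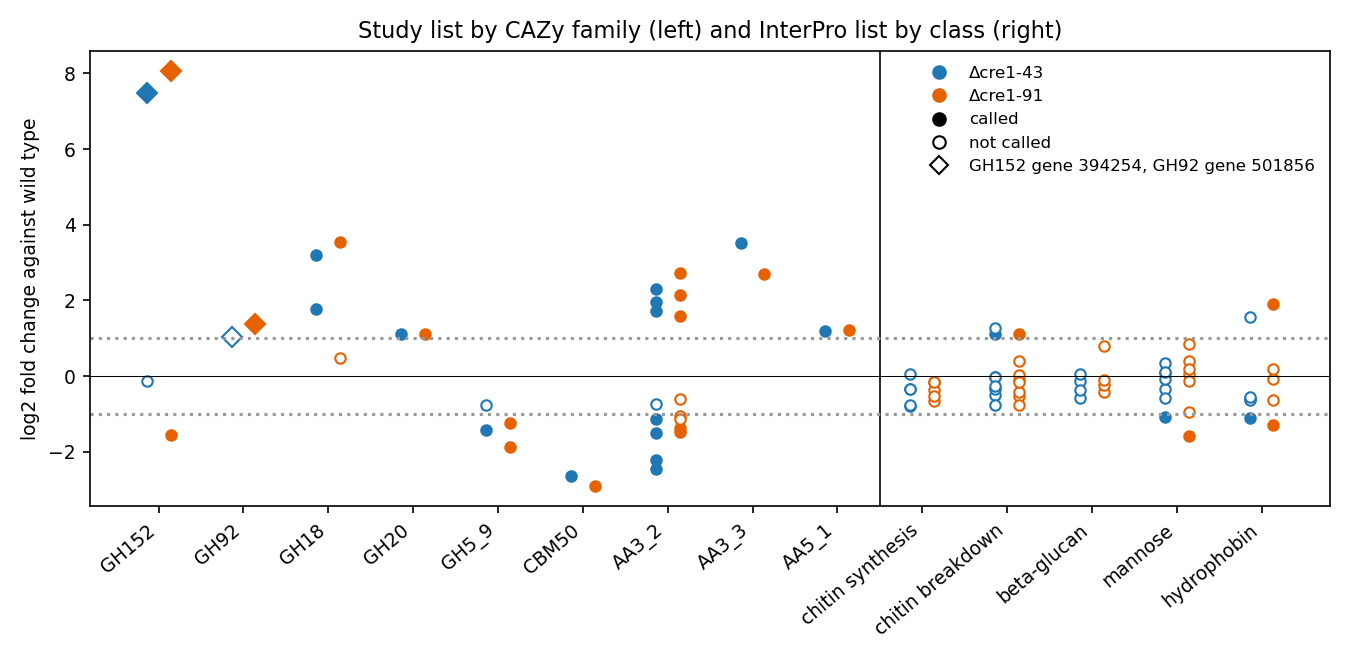
Log2 fold change against the wild type (y axis) of the 19 genes of the study's fungal cell wall list by CAZy family (left of the line) and of 29 cell wall genes taken by InterPro description (right). Filled symbols were called, open symbols were not, and diamonds are the GH152 gene 394254 and the GH92 gene 501856. The list of the study spreads from -2.89 to 8.05, whereas the genes taken by description stay between -1.57 and 1.90.

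For comparison, cell wall genes were also taken by description and not by their change. They were 29 genes for chitin synthesis, chitin breakdown, β-glucan, mannose transfer or trimming, and hydrophobins, from the part of the InterPro table that was read. In Δ*cre1*-43, 1 was called higher and 2 lower, and in Δ*cre1*-91, 2 higher and 2 lower, counts near the background of the 4.82% and 4.97% of all genes called higher and the 2.16% and 3.35% called lower. Their median log2 fold change was -0.33 and -0.15, and the median of the 5 chitin synthesis genes was -0.35 and -0.36. Of these 5, 0 were called by edgeR, DESeq2 or limma voom, and 2 in each strain had an unadjusted edgeR P under 0.05. Missing the call only on the fold limit were 15443 in Δ*cre1*-43 (-0.78, edgeR, adjusted P = 0.000443) and 357091 in both strains (-0.76 and -0.65, edgeR, adjusted P = 0.00229 and 0.00616). The highest value in this list was 1.90, beside 7.47 and 8.05 for the GH152 gene.

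The mannose genes of this list act on the same sugar as GH92 enzymes. Of these, 0 of 7 were called higher in either strain by any of the 3 tools. At an unadjusted edgeR P under 0.05, 0 in Δ*cre1*-43 and 2 in Δ*cre1*-91 were higher. Gene 360380 missed the call in Δ*cre1*-91 only on the fold limit (log2 fold change 0.85, edgeR, adjusted P = 0.0115). A count of 0 among so few genes is near the background of 4.82% and 4.97% of all genes called higher. Gene 252133, a GH47 mannosidase of the family that trims N-glycans, fell in both strains. It stood at 106, 110 and 102 CPM in the wild type, 56.5 and 44.7 CPM in Δ*cre1*-43 and 37.5 and 33.9 CPM in Δ*cre1*-91. Its log2 fold changes were -1.07 (edgeR, adjusted P = 0.000255) and -1.57 (edgeR, adjusted P = 3.58e-06), opposite in sign to those of the GH92 gene, and the call in Δ*cre1*-43 was lost without Δ*cre1*-43 replicate 2 (-0.92).

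Of the 5 hydrophobins, small secreted proteins that coat hyphae and spores, 0 were called higher and 1 lower in Δ*cre1*-43, and 1 higher and 1 lower in Δ*cre1*-91. Over all genes, 4.82% and 4.97% were called higher and 2.16% and 3.35% lower in these strains. Gene 354674 ranged from 13.1 to 224 CPM in the wild type alone and from 251 to 380 CPM in the mutants. It was called higher in Δ*cre1*-91 (1.90), but that call was lost in 9 of 16 alternatives, among them leaving out any single mutant library (1.82 to 1.93) or wild-type replicate 2 (1.65). In Δ*cre1*-43 (1.56) it was not called, but it was in 6 of 16 alternatives, which were upper-quartile scaling (1.59), library size only (1.60), the replicate block (3.17), counts not rounded (1.56) and the fits without wild-type replicate 1 (1.04) or replicate 3 (2.97). Gene 363242 was called lower in Δ*cre1*-91 (-1.28), not without Δ*cre1*-91 replicate 2 (-1.20) or with limma voom (-1.23), and gene 370922 was called lower in Δ*cre1*-43 (-1.10), not without wild-type replicate 3 (-0.98) or with the replicate block (-0.98). The GH20 gene 227722, which belongs to both lists, was the only gene taken by description that was called higher in both strains.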

How the data were processed

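The authors trimmed the Quant-Seq reads with bbduk, aligned them with STAR 2.6.1a to the Amut1Bmut1 *pab1-1* assembly (v1.0) and counted them per gene model with a 400-bp 3′ overhang, using featureCounts. The result, deposited by the authors, is a table of estimated counts, some of them fractional. No source used here gives the strand setting. The authors' second deposited table holds a scaled signal, counts per 1000000 of the TMM-scaled library size, which for both genes differed by at most 0.168% from the same value computed here on unrounded counts and by at most 1.63% from the printed CPM, which come from rounded counts, and was not used further.

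Groups were taken from the sample labels, and the 7 libraries were fitted in one edgeR 4.0.16 model (R 4.3.3) with a coefficient per strain, TMM scaling, no filter and the quasi-likelihood test. P values were adjusted across the 14242 genes by the Benjamini-Hochberg method. The test had been laid out for whole counts, and the estimated counts were rounded first. Standard errors are the fitted coefficient divided by the square root of F. DESeq2 1.42.0, limma 3.58.1 voom, other scalings, a low-count filter, fits of only the groups compared, the replicate number as a block and leaving out each library were alternatives, and a fit to unrounded counts was chosen after seeing the data. The models were tested on simulated counts.

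The members and lists were chosen with earlier results of these data known. Named are the GH152 and GH92 genes, *cre1*, up to 3 nearest models on each side and the 5 most similar patterns. Upstream of the GH152 gene the scaffold holds only 496341 and 446030. Also named are genes of the study's fungal cell wall list, and genes called in the list by InterPro description. That list comes from 1999 protein IDs read from a table cut short. Each library's assigned counts set the precision of low counts. Sequences were not analysed here.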

Additional observations from a re-analysis of the deposited data

How the results depend on the processing

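The GH152 gene kept its direction and its call against the wild type in all 16 alternative fits, with log2 fold changes of 6.99 to 7.81 in Δ*cre1*-43 and 7.78 to 8.33 in Δ*cre1*-91. Both genes were chosen on these contrasts, so their calls over the alternatives describe the dependence on processing and carry no test. The GH92 gene stayed above 0, at 0.79 to 1.26 in Δ*cre1*-43, both limits being those of leaving out 1 library. In Δ*cre1*-91 it stayed at 1.30 to 1.47. In Δ*cre1*-43 it was called in 1 of 16 alternatives (limma voom, 1.01). In Δ*cre1*-91 it was not called in 3 of 16. Neither gene passed between the strains in any alternative, while the number of genes called there over the whole table ran from 0 to 106 (35 as reported: 0 with limma voom, the low-count filter or without Δ*cre1*-43 replicate 1 or either Δ*cre1*-91 library, 5 without wild-type replicate 2, 13 without Δ*cre1*-43 replicate 2, 55 with upper-quartile scaling, 68 with DESeq2, 74 with counts not rounded, 101 in the fit of only the mutants, 105 without wild-type replicate 3 and 106 with library size only, which shifted the median by 0.12). The cause was not tested.

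The replicate numbers are shared labels and were not taken as pairs, since deviations of same-numbered libraries correlated at -0.18 to 0.14. With the replicate block the GH152 gene stood at 7.70 and 8.33, and at -0.63 between the strains. The GH92 gene stood at 0.95 and 1.30, with the latter not called, and at -0.35 between the strains. The replicate block gave 879 and 1093 calls over all genes in place of 993 and 1185, and 53 in place of 35 between the strains.

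Counts of the study's list stayed within 1.5 times. Of the 29 genes taken by description, those called higher in Δ*cre1*-43 (1) became 2 with upper-quartile scaling, library size only, the replicate block and counts not rounded, and 1 to 2 when 1 library was left out. Those called lower there (2) became 1 with the replicate block, 5 without a fold-change limit, and 1 to 2 when 1 library was left out. Those called higher in Δ*cre1*-91 (2) became 1 with the low-count filter, DESeq2, limma voom and only the groups compared, and 1 to 2 when 1 library was left out. Those called lower there (2) became 1 with limma voom, 6 without a fold-change limit, and 1 to 3 when 1 library was left out. Depth limits the wild-type GH152 level, which rests on 11 reads, and the GH92 gene, with 18 to 40 reads per library.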
